A study of Mus musculus with 56 samples.

Results

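The lipid-associated macrophage genes Trem2, Gpnmb, Itgax, Cd9, Cd63, Lpl, Fabp5, Spp1, Mmp12 and Atp6v0d2 were followed in mouse liver across 7 treatment groups. The 10 genes were chosen by name, with earlier results of these data known. They are the rows of the deposited gene count table that carry these symbols. All 10 were found among the 21935 genes of the table, and all 10 passed the filter on low counts (5 or more reads in 3 or more mice), which 14105 genes passed.

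Lipid-associated macrophages are macrophages that take up and break down lipid in obese adipose tissue and in the steatotic liver, where many arise from blood monocytes. Their receptor TREM2 binds lipids and signals through the adaptor TYROBP, and the cells carry a shared set of genes for lipid uptake, lysosomal digestion and matrix remodelling. None of the 10 genes belongs to these cells alone: Itgax is also a dendritic cell gene, Spp1 is made by bile duct cells, Lpl by adipocytes, and Cd9 and Cd63 by many cell types.

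All 56 livers came from male C57BL/6J mice that arrived at 5 to 6 weeks of age, with 8 mice per group. The chow vehicle group ate CHOW and received vehicle, and the other 6 groups were fed AMLN diet, in which fat, fructose and cholesterol are high, for 36 weeks before dosing and were included only when a liver biopsy showed steatosis and fibrosis (DIO-MASH mice). DIO-MASH mice were dosed subcutaneously once daily for 8 weeks with vehicle (DIO-MASH vehicle), the FGF21 analog zalfermin at 0.05 mg/kg (low-dose) or 0.2 mg/kg (high-dose), the GLP-1 receptor agonist semaglutide at 3 µg/kg (low-dose) or 120 µg/kg (high-dose), or both compounds (combination). The methods of the study give the combination as both low doses and the series text as both high doses, and it is called the combination throughout. Reads came from pieces of whole liver, so fewer cells of a type and less RNA per cell cannot be told apart in any value below.

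Reads counted on genes ranged from 5228187 to 20885786 per mouse (median 12206788), and CPM values are reads per 1000000 library reads, with library sizes scaled by TMM (the trimmed mean of M-values). The TMM factors were 0.708 to 0.897 in chow vehicle mice and 1.08 to 1.2 in DIO-MASH vehicle mice. The summed level of 10 hepatocyte markers was 168170 to 256000 CPM in chow vehicle and 75329 to 97669 CPM in DIO-MASH vehicle mice, and resident Kupffer cell and monocyte markers were read in every mouse. Chow mouse 8 and low-dose semaglutide mouse 6 stood apart, with mean Spearman correlations across genes of 0.947 and 0.967 with the other mice of their groups, and counts of genes are therefore also given without both. The study excluded 1 low-dose semaglutide mouse that neither the labels nor the table mark, so all 8 were used. Mice are numbered from 1 to 8 within a group in the order of their samples.

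The first comparison asked how far the 10 genes differ between chow-fed mice and mice with diet-induced MASH. Of the 10 genes, 8 were lower in chow vehicle than in DIO-MASH vehicle mice, and none was higher. The share of all tested genes past the same threshold (edgeR, adjusted p under 0.05) was 55.4%, and 28.9% were lower in chow. Every chow mouse lay below every DIO-MASH vehicle mouse for the same 8 genes, a pattern held by 9.49% of all tested genes in that direction. The median log2 fold change of the 10 genes was -3.13, against -0.0072 over all tested genes. Without chow mouse 8 and low-dose semaglutide mouse 6, 8 genes were again past the threshold.

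**Figure D1:**
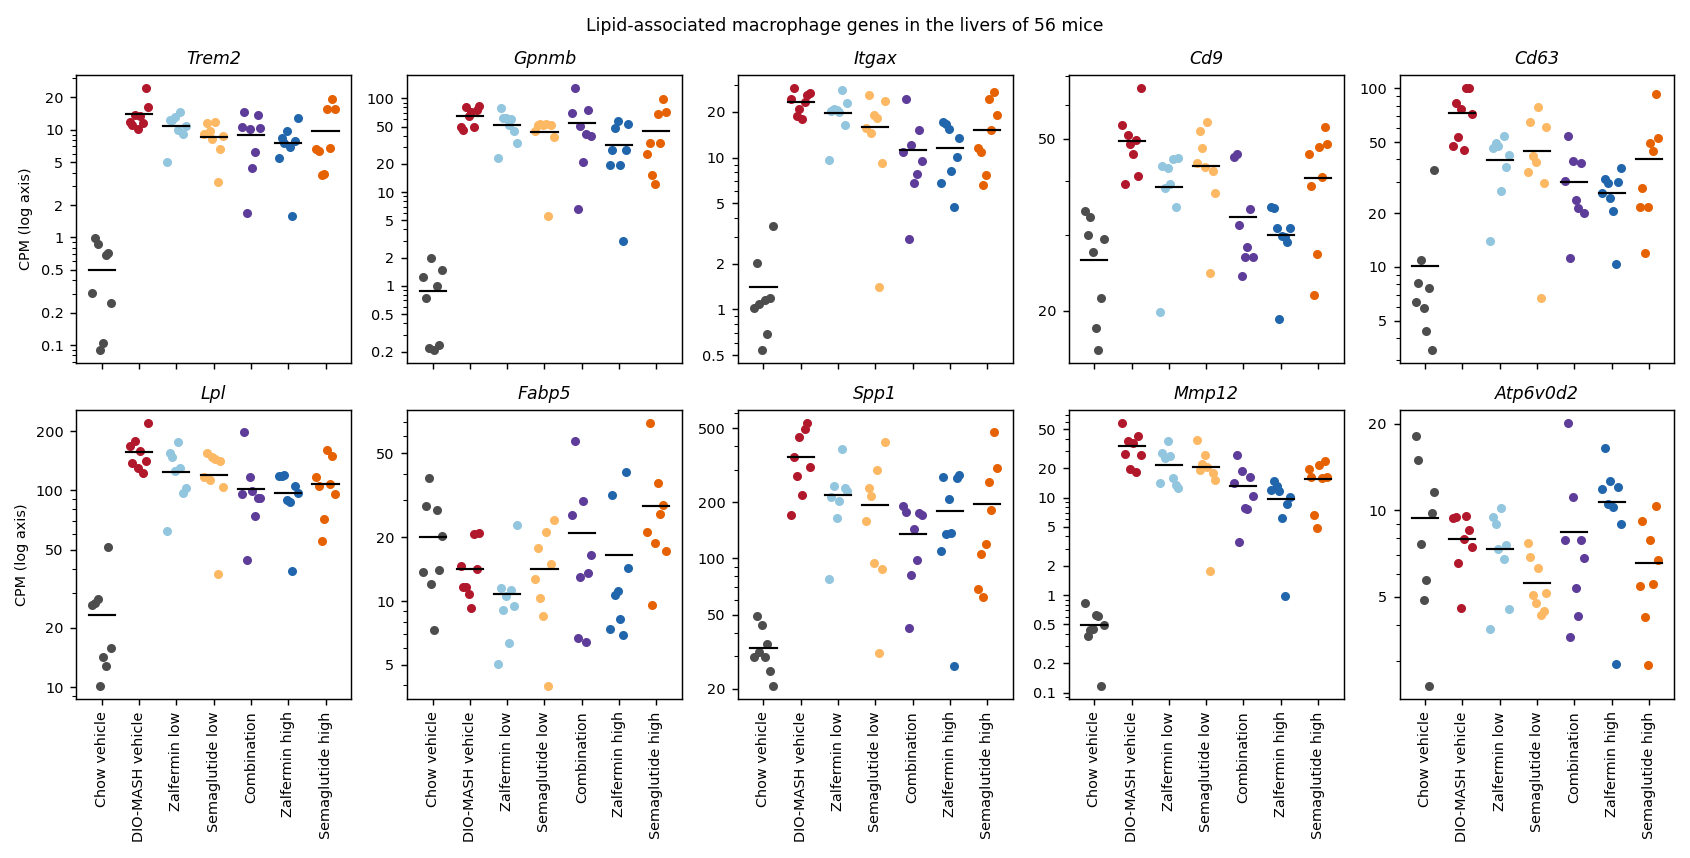
CPM (reads per 1000000 library reads, log axis, a different range in each panel) of the 10 lipid-associated macrophage genes in each of 56 livers. Each point is 1 mouse, in order of its number within the group, and black bars are group means. Chow vehicle points lie below all DIO-MASH vehicle points for every gene except Fabp5 and Atp6v0d2, and all treated mice lie above the chow points for Trem2, Gpnmb and Mmp12.

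Because 8 of the genes moved together with diet, the promoters in RefSeq (GRCm38.p6) were searched for the binding motifs of factors known from macrophages. Windows of 300 bases, from 250 before to 50 after the start site, were found for 7 of the 10 genes (9 windows, since Mmp12 and Spp1 have 2 start sites each). The AP-1 motif TGANTCA was found on either strand at 4 of the 7 genes (Trem2, Itgax, Mmp12 and Gpnmb). Counted by window, it was in 4 of the 9, and in 7.81% of the 32851 promoter windows of that length. The PU.1-like motif GAGGAAG was found at 4 genes (Trem2, Mmp12, Spp1 and Cd63), in 4 of the 9 windows, and in 13.6% of all windows. The E-box CACGTG, the core of the lysosomal gene motif, was found at none of the 7, and in 7.15% of all windows. The 150 bases before the start site are shown, all read on the plus strand and in lower case, for the 6 windows that hold a match there. Capitals mark TGANTCA in the first 3 sequences and GAGGAAG, or its reverse complement CTTCCTC, in the last 3. Trem2 holds both, at 9 and 41 bases before the start, without overlap.
Trem2 chr17:48346251-48346400: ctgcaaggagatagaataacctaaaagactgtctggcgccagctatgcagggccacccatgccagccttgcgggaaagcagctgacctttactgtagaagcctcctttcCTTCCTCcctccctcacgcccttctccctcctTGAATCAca
Itgax chr7:128129400-128129549: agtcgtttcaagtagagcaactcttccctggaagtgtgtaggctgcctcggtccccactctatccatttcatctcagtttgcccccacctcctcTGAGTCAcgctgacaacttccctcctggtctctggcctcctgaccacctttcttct
Mmp12 chr9:7347224-7347373: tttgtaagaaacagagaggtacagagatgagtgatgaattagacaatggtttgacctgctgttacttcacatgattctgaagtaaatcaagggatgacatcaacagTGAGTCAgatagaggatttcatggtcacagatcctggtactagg
Mmp12 chr9:7344247-7344396: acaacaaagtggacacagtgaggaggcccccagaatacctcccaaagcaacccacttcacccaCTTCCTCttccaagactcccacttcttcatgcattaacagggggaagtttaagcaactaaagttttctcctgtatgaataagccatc
Spp1 chr5:104434961-104435110: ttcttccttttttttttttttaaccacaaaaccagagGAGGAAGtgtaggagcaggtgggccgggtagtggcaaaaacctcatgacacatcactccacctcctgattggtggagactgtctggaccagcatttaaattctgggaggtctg
Cd63 chr10:128909195-128909344: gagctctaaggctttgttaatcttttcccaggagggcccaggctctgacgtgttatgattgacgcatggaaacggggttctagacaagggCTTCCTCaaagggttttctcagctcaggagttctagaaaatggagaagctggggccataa

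A motif match describes these letters only, and binding was not measured. Mmp12 had its AP-1 match at the downstream start site and its PU.1-like match at the upstream one. No window was found for Fabp5, Lpl and Atp6v0d2, and Fabp5 and Atp6v0d2 are the genes that did not pass the test between diets. Every gene searched was thus higher in DIO-MASH vehicle than in chow vehicle mice. This includes Cd9 and Gpnmb, which held no match in their 150 bases. The matches therefore cannot be compared between genes that did and did not differ with diet. The windows of Cd63 and of the downstream Mmp12 start lie inside the longer GENCODE genes, and those of Itgax and the upstream Mmp12 start run a few bases past the GENCODE gene start.

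Trem2 (chr17:48346401-48354147, plus strand, GRCm38) encodes the lipid-sensing receptor that defines these cells. It was read at 0.0901 to 0.978 CPM (median 0.50) in chow vehicle mice, on 1 to 13 reads per mouse, and at 10.2 to 24.6 CPM (median 12.6) in DIO-MASH vehicle mice. The groups were far apart, with a log2 fold change in chow against DIO-MASH vehicle of -4.80 ± 0.44 (SE), adjusted p = 9.09e-13. The low doses gave 5.02 to 14.5 CPM (median 11.6) for zalfermin and 3.28 to 11.7 CPM (median 8.92) for semaglutide. The high doses gave 1.58 to 13 CPM (median 7.67) for zalfermin and 3.81 to 19.1 CPM (median 6.68) for semaglutide, and the combination 1.70 to 14.6 CPM (median 10.3). Each treated group overlapped DIO-MASH vehicle, and none overlapped chow. Trem2 fell in high-dose zalfermin by 0.88 on the log2 scale (SE 0.32, adjusted p = 0.0473), and with 1 mouse left out in each of 56 fits the adjusted p ranged from 0.0227 to 0.128. The call was lost without DIO-MASH vehicle mouse 3, 5, 7 or 8 or high-dose zalfermin mouse 1, 2, 3, 5, 6 or 7, with the highest adjusted p without vehicle mouse 7, the mouse with the highest Trem2. In the combination the change was -0.64 ± 0.32 (SE), adjusted p = 0.140.

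Gpnmb (chr6:49036546-49070929, plus strand) encodes a glycoprotein of the lysosome and cell surface. It showed the largest difference with diet of the 10 genes, from 0.208 to 1.98 CPM (median 0.876) in chow vehicle to 45.9 to 82.8 CPM (median 68.2) in DIO-MASH vehicle mice (log2 fold change in chow -6.09 ± 0.57 (SE), adjusted p = 1.57e-12). No treatment moved it past the threshold. The combination spread from 6.63 to 129.8 CPM (median 46.3), wider on both sides than DIO-MASH vehicle, with a change of -0.25 ± 0.39 (SE), adjusted p = 0.686. High-dose zalfermin mice lay at 3.04 to 57.4 CPM (median 28.1), and their change of -1.01 ± 0.40 (SE), adjusted p = 0.0737 passed the threshold only without its mouse 4 (adjusted p = 0.0443) or mouse 8 (0.0492) among the fits with 1 mouse left out. Low-dose zalfermin, low-dose semaglutide and high-dose semaglutide mice had medians of 56.6, 51.5 and 33.6 CPM.

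Itgax (chr7:128129547-128150657, plus strand) encodes CD11c, an integrin chain of dendritic cells and of macrophages recruited to fatty tissue. DIO-MASH vehicle mice lay close together at 18 to 28.9 CPM (median 23.9), above all chow vehicle mice at 0.541 to 3.57 CPM (median 1.12) (log2 fold change in chow -4.07 ± 0.40 (SE), adjusted p = 6.77e-12). Itgax fell in the combination, to 2.93 to 24.4 CPM (median 10.2), and in high-dose zalfermin, to 4.74 to 17.3 CPM (median 11.8). The log2 fold changes were -1.05 ± 0.32 (SE), adjusted p = 0.0148, and -1.0 ± 0.32 (SE), adjusted p = 0.0236. In high-dose zalfermin every mouse lay below every DIO-MASH vehicle mouse, while combination mouse 2 lay inside the vehicle range. The high-dose zalfermin call was lost without its mouse 1 (adjusted p = 0.0502) and without its mouse 6 (adjusted p = 0.0561). Low-dose zalfermin (9.64 to 27.9 CPM, median 20.4), low-dose semaglutide (1.41 to 26 CPM, median 17.1) and high-dose semaglutide (6.65 to 26.9 CPM, median 13.4) did not pass the threshold, with changes of -0.24, -0.54 and -0.62.

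The tetraspanins Cd9 (chr6:125460266-125494791, minus strand) and Cd63 (chr10:128900989-128912822, plus strand) encode membrane proteins that organize other proteins at the cell surface and, for CD63, in lysosomes. Cd9 had the smallest of the 8 diet differences, 16.2 to 33.9 CPM (median 28.3) in chow against 39.2 to 65.8 CPM (median 49.2) in DIO-MASH vehicle mice (log2 fold change -0.92 ± 0.17 (SE), adjusted p = 8.18e-06). Cd63 lay at 3.43 to 34.8 CPM (median 6.98) in chow, where mouse 8 held the highest value, and at 45.4 to 101 CPM (median 74.1) in DIO-MASH vehicle mice (log2 fold change -2.85 ± 0.40 (SE), adjusted p = 3.04e-08, and -3.46 without chow mouse 8 and low-dose semaglutide mouse 6). Both fell past the threshold in the combination and in high-dose zalfermin. In low-dose zalfermin, low-dose semaglutide and high-dose semaglutide neither gene passed it. The log2 changes there were -0.36, -0.19 and -0.28 for Cd9 and -0.87, -0.70 and -0.84 for Cd63. Cd9 reached 24.1 to 46.2 CPM (median 29.8) in the combination (log2 fold change -0.58 ± 0.17 (SE), adjusted p = 0.00895) and 19.1 to 34.7 CPM (median 30.4) in high-dose zalfermin (-0.72 ± 0.17 (SE), adjusted p = 0.00141). Cd63 reached 11.2 to 54.2 CPM (median 26.9) in the combination (-1.27 ± 0.36 (SE), adjusted p = 0.00886) and 10.3 to 35.8 CPM (median 27.7) in high-dose zalfermin (-1.47 ± 0.37 (SE), adjusted p = 0.00295). High-dose zalfermin mice lay below all DIO-MASH vehicle mice for both genes, and combination mice overlapped them. Each of the 4 calls held in all 56 fits with 1 mouse left out. Against chow, Cd63 was still higher in both groups (log2 fold changes 1.58 and 1.38, adjusted p = 0.00131 and 0.00426), while for Cd9 the differences from chow were 0.34 ± 0.17 (SE), adjusted p = 0.118, and 0.20 ± 0.17 (SE), adjusted p = 0.370.

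Lpl (chr8:68880491-68907448, plus strand) encodes lipoprotein lipase, which frees fatty acids from circulating triglyceride. It ran from 10.2 to 51.5 CPM (median 21) in chow vehicle to 123 to 219.6 CPM (median 149.8) in DIO-MASH vehicle mice (log2 fold change in chow -2.77 ± 0.28 (SE), adjusted p = 9.79e-12). The treated groups had medians of 127 to 129.5 CPM in the low-dose monotherapies, 93.7 in the combination, 101 in high-dose zalfermin and 106 in high-dose semaglutide. None passed the threshold by edgeR. High-dose zalfermin came closest, at -0.70 ± 0.26 (SE), adjusted p = 0.0525, and passed by DESeq2 (adjusted p = 0.0369) and under the stricter filter of 10 reads in 8 mice (0.0443, edgeR). Its highest mouse (119 CPM) lay just under the lowest DIO-MASH vehicle mouse (123 CPM). The edgeR adjusted p ranged from 0.0347 to 0.120 with 1 mouse left out and passed the threshold in 13 of the 56 fits, those without chow mouse 4, 6, 7 or 8, DIO-MASH vehicle mouse 4 or 6, low-dose zalfermin mouse 1, low-dose semaglutide mouse 6, combination mouse 2 or 3, or high-dose semaglutide mouse 3, 5 or 7. In the combination the change was -0.63 ± 0.26 (SE), adjusted p = 0.0737, and -0.83 with an adjusted p of 0.0140 without combination mouse 2, whose 198 CPM was the highest of the group.

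Fabp5 (chr3:10012548-10016607, plus strand) encodes a cytosolic carrier of fatty acids. Its difference between diets did not pass the test and the groups overlapped: it lay at 7.28 to 38.3 CPM (median 17.1) in chow vehicle and at 9.31 to 20.9 CPM (median 12.9) in DIO-MASH vehicle mice (log2 fold change 0.48 ± 0.39 (SE), adjusted p = 0.303). Its highest group mean was in high-dose semaglutide (28.3 ± 18.4 CPM, SD, n = 8), where the change was 0.99 ± 0.39 (SE), adjusted p = 0.171, and its lowest in low-dose zalfermin (10.8 ± 5.43 CPM). The combination (6.38 to 57 CPM, median 15.0) and high-dose zalfermin (6.93 to 40.9 CPM, median 11) each held mice above and below the whole DIO-MASH vehicle range. Fabp4, a fatty acid carrier of macrophages and adipocytes, was different in this respect: it was lower in chow (log2 fold change -2.97 ± 0.26, adjusted p = 2.46e-13) and fell in the combination (-1.80 ± 0.24, adjusted p = 1.68e-07), in high-dose zalfermin (-1.43 ± 0.24, adjusted p = 1.32e-05) and in high-dose semaglutide (-1.05 ± 0.23, adjusted p = 0.00993). The difference between both genes was not tested.

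Spp1 (chr5:104435118-104441050, plus strand) encodes osteopontin, a secreted protein of macrophages and bile duct cells that is bound by integrins and CD44. It was the most abundant of the 10 genes per kilobase of exon, at 212 CPM per kb in DIO-MASH vehicle mice, against 20.0 in chow vehicle. Per mouse it ran from 20.8 to 49.4 CPM (median 30.5) in chow to 172 to 532 CPM (median 330.1) in DIO-MASH vehicle (log2 fold change in chow -3.40 ± 0.42 (SE), adjusted p = 2.39e-09). Spp1 fell in the combination, to 42.4 to 192 CPM (median 158) (-1.37 ± 0.39 (SE), adjusted p = 0.00855), where 3 mice lay just above the lowest DIO-MASH vehicle mouse and all 8 below the other 7. High-dose zalfermin mice lay at 26.4 to 281 CPM (median 173) (-0.96 ± 0.39 (SE), adjusted p = 0.0781). The monotherapies at low dose and high-dose semaglutide gave -0.67, -0.85 and -0.83, none past the threshold.

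Mmp12 (chr9:7344381-7369499, plus strand) encodes macrophage elastase, a secreted protease. It was read on 1 to 8 reads per mouse in chow, at 0.118 to 0.821 CPM (median 0.471), and at 18.2 to 57.7 CPM (median 32.1) in DIO-MASH vehicle mice (log2 fold change in chow -6.04 ± 0.52 (SE), adjusted p = 9.45e-14). It had the largest change of the 10 genes in high-dose zalfermin. High-dose zalfermin mice lay at 0.972 to 14.8 CPM (median 10.9), all below DIO-MASH vehicle, and Mmp12 fell by 1.79 on the log2 scale (SE 0.36, adjusted p = 2.43e-04), a 3.46-fold reduction. In the combination it fell by 1.33 (SE 0.35, adjusted p = 0.00465), to 3.47 to 27.5 CPM (median 12.2). High-dose semaglutide mice, at 4.86 to 23.5 CPM (median 16.1), missed the threshold (-1.11 ± 0.35 (SE), adjusted p = 0.0686), and passed it without high-dose semaglutide mouse 7 (adjusted p = 0.0345), low-dose semaglutide mouse 6 (0.0304) or high-dose zalfermin mouse 6 (0.0446). Low-dose zalfermin and low-dose semaglutide mice had medians of 20.7 and 20.0 CPM. High-dose against low-dose zalfermin gave -1.16 ± 0.36 (SE), adjusted p = 0.0809, the lowest adjusted p of the 10 genes in any comparison between treated groups, and 0.0461 without low-dose zalfermin mouse 1 and 0.0364 without low-dose semaglutide mouse 6.

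Atp6v0d2 (chr4:19876841-19922605, minus strand) encodes a tissue-restricted subunit of the V-ATPase, the pump that acidifies lysosomes. The diet groups overlapped, at 2.46 to 18.2 CPM (median 8.71) in chow vehicle and 4.59 to 9.52 CPM (median 8.25) in DIO-MASH vehicle mice (log2 fold change 0.24 ± 0.29 (SE), adjusted p = 0.511). High-dose zalfermin had the highest mean (10.7 ± 3.86 CPM) and low-dose semaglutide the lowest (5.59 ± 1.24 CPM), and neither differed from DIO-MASH vehicle past the threshold (0.43 ± 0.29 (SE), adjusted p = 0.342, and -0.51 ± 0.30 (SE), adjusted p = 0.643). Atp6v0d1, the subunit that takes its place in most cells, was read at 53 CPM per kb in DIO-MASH vehicle mice, against 2.92 for Atp6v0d2.

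In the order of the 7 groups by mean level, DIO-MASH vehicle was highest and chow vehicle lowest for 8 genes (all but Fabp5 and Atp6v0d2). For Cd9, chow and its neighbour high-dose zalfermin were not separated (exact permutation test of log2 CPM, two-sided, p = 0.220, 0.745 adjusted over 60 tests). For the other 7 the step from chow to the next group passed, with adjusted p from the same exact test of 0.00311 to 0.0293, where 8 against 8 mice allow no unadjusted p under 1.55e-04. No other pair of neighbours in the order differed after adjustment, for any of the 10 genes. Neighbours were set by the group means of these same data, so small differences between them were built in. These tests do not bear on groups further apart in the order. Fabp5 and Atp6v0d2 had another order, with chow below high-dose semaglutide and the combination for Fabp5 and below high-dose zalfermin alone for Atp6v0d2.

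The second set of comparisons asked whether treatment lowered the genes in DIO-MASH mice. All 5 comparisons share the same 8 DIO-MASH vehicle mice. By edgeR, low-dose zalfermin changed 0 of 10 genes (0.468% of all tested genes were past the threshold), with 2 lower at an unadjusted p under 0.05 and 0 by DESeq2. Low-dose semaglutide changed 0 (0% of all genes), with 3 lower unadjusted and 0 by DESeq2. The combination lowered 5 (10.9% of all genes were lower), namely Cd9, Cd63, Spp1, Mmp12 and Itgax, with 7 lower unadjusted and 5 by DESeq2. High-dose zalfermin lowered 5 (8.68%), namely Trem2, Cd9, Cd63, Mmp12 and Itgax, with 8 lower unadjusted and 6 by DESeq2. High-dose semaglutide changed 0 (2.43%), with 4 lower and 1 higher unadjusted and 0 by DESeq2. No gene rose past the threshold in any treated group. The counts moved by at most 1 gene without chow mouse 8 and low-dose semaglutide mouse 6, to 6 in the combination, 6 in high-dose zalfermin and 1 in high-dose semaglutide. For high-dose zalfermin 3 genes were called without its mouse 1 or without its mouse 6.

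In high-dose zalfermin 5 of the 10 genes (Cd9, Cd63, Lpl, Mmp12 and Itgax) lay wholly below the DIO-MASH vehicle mice, against 2.47% of all tested genes. In low-dose zalfermin, low-dose semaglutide, the combination and high-dose semaglutide 0 of the 10 did (0.078%, 0.0425%, 1.89% and 0.255% of all tested genes). Estimates lay below 0 for 8 of the 10 genes in the combination and in high-dose zalfermin, 9 in low-dose and in high-dose semaglutide and 10 in low-dose zalfermin, and the medians were -0.64, -0.92, -0.55, -0.54 and -0.36 in that order, while medians over all tested genes lay between -0.026 and -0.0031.

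**Figure D2:**
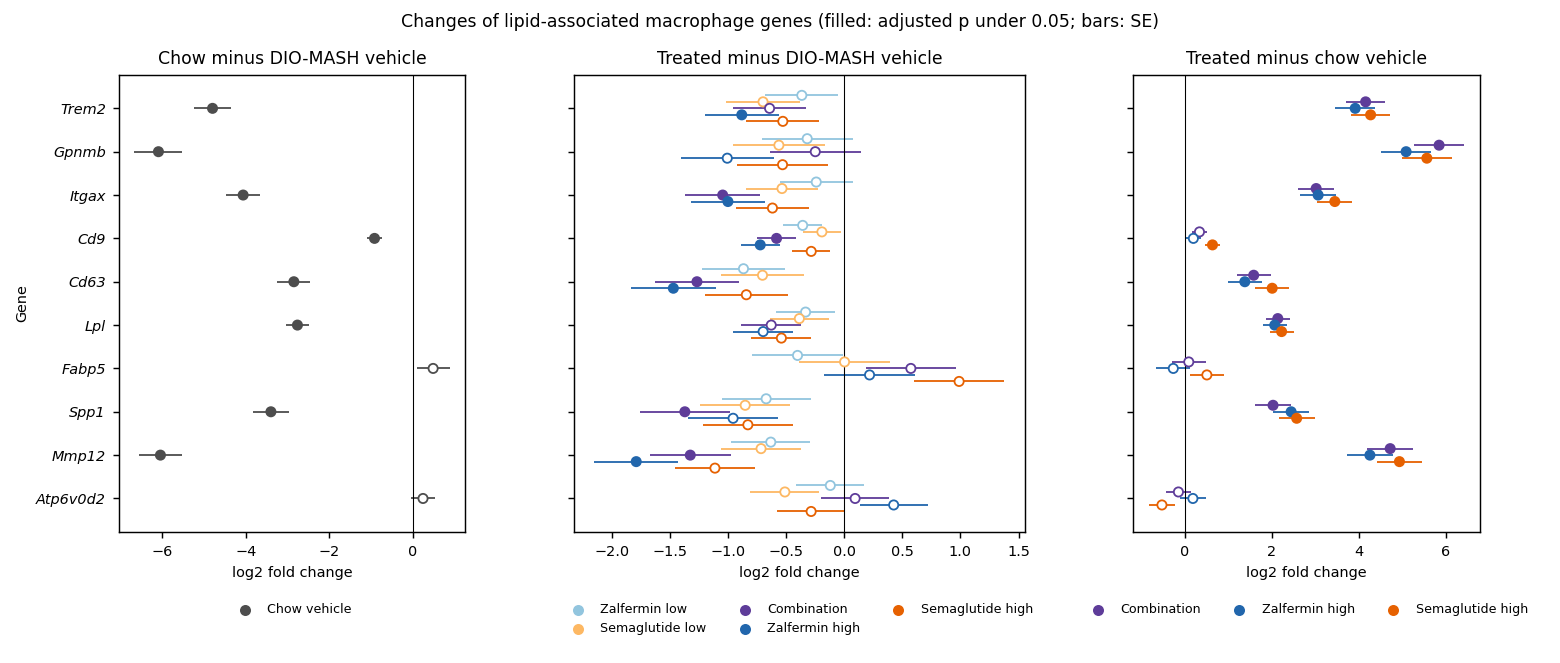
Log2 fold changes of the 10 genes (rows) in chow against DIO-MASH vehicle (left), in each treated group against DIO-MASH vehicle (middle) and in 3 treated groups against chow vehicle (right), n = 8 mice per group. Points are edgeR estimates, bars are standard errors, filled points have an adjusted p under 0.05, and the horizontal axes differ. Filled points in the middle panel belong to the combination and high-dose zalfermin alone.

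By their numbers the mice form 4 series, of which A, B and C occur in every group. Within each of the 3, mean log2 CPM was lower than in DIO-MASH vehicle for 8 of the 10 genes in chow, 9 in the combination, 8 in high-dose zalfermin, 7 in low-dose semaglutide, 6 in low-dose zalfermin and 5 in high-dose semaglutide. The differences in series A, B and C, each on 2 to 4 mice per group (1 to 3 in chow), were -1.65, -1.94 and -1.10 for Mmp12 in the combination and -1.59, -2.77 and -1.57 in high-dose zalfermin. Cd63 gave -1.10, -1.33 and -1.84 in the combination and -1.12, -1.71 and -1.61 in high-dose zalfermin. Itgax gave -1.41, -1.38 and -1.01 in the combination and -1.08, -1.18 and -1.06 in high-dose zalfermin. In high-dose semaglutide the differences lay further below 0 in series A (4 mice) than in B and C (2 mice each) for 9 of the 10 genes, all but Fabp5. There Itgax gave -1.55, -0.01 and -0.11, Trem2 -1.16, -0.26 and 0.04, and Gpnmb -1.25, -0.58 and 0.47. With the series as a covariate, 5 genes remained past the threshold in the combination and 4 in high-dose zalfermin, where Trem2 was lost (adjusted p = 0.0561).

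Treated groups were next compared with each other. The combination against low-dose zalfermin, low-dose semaglutide, high-dose zalfermin and high-dose semaglutide, high against low dose of each compound, and both high doses against each other gave 0 of the 10 genes each by edgeR and by DESeq2. In that order 6.62%, 4.21%, 0.503%, 1.89%, 1.84% (zalfermin doses), 0% (semaglutide doses) and 0.447% of all tested genes were past the threshold. At an unadjusted p under 0.05 the counts of the 10 genes were 2, 2, 0, 0, 3, 1 and 2. For Mmp12 the combination differed by -0.69 ± 0.35 (SE) from low-dose zalfermin and by -0.61 ± 0.35 (SE) from low-dose semaglutide. For Trem2 the interval of the difference between combination and high-dose zalfermin ran from -0.40 to 0.87 on the log2 scale (95%). The departure of the combination from the sum of both low-dose changes was tested as an interaction, taking it as both low doses, and gave 0 of the 10 genes (0.0142% of all genes), 0 unadjusted and 0 by DESeq2. Its estimates ran from -0.27 (Itgax) to 0.97 (Fabp5), with SEs of 0.23 to 0.56.

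Against chow, 7 of the 10 genes were still higher in the combination (17.4% of all tested genes were higher), 7 in high-dose zalfermin (19.7%) and 8 in high-dose semaglutide (21.3%). Trem2, Gpnmb, Cd63, Spp1, Lpl, Mmp12 and Itgax were higher in all 3 groups, and Cd9 in high-dose semaglutide alone (0.64 ± 0.17 (SE), adjusted p = 0.00210). Trem2 remained 15.1-fold above chow in high-dose zalfermin, Gpnmb 33.9-fold and Mmp12 19.1-fold. For Trem2, Gpnmb and Mmp12 every treated mouse of all 5 groups lay above every chow mouse. The genes wholly above chow were 6 of 10 in low-dose zalfermin (4.82% of all tested genes), 3 in low-dose semaglutide (1.68%), 3 in the combination (1.26%), 4 in high-dose zalfermin (2.86%) and 6 in high-dose semaglutide (2.67%).

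The 10 genes varied together between mice of the same group. Over 56 mice, after each group's mean was subtracted, Pearson's r of log2 CPM lay between 0.396 and 0.848 for the 45 pairs of genes (median 0.576), and 33 pairs were over 0.5. The values share each mouse's library and its cell content, so they are given as a description. The closest pair was Cd63 and Itgax (0.848), followed by Gpnmb and Mmp12 (0.803). The closest partner of Trem2 was Lpl (0.727), of Spp1 Trem2 (0.723), of Fabp5 Cd63 (0.591), of Cd9 Cd63 (0.589), and of Atp6v0d2 Lpl (0.697). Without low-dose semaglutide mouse 6 and high-dose zalfermin mouse 6, which deviated most, the r of these named pairs lay between 0.520 (Fabp5 and Cd63) and 0.796 (Cd63 and Itgax). That of Gpnmb and Mmp12 was then 0.692. The share of other gene pairs with an r over 0.5 was not computed. Fabp5 and Atp6v0d2, which did not pass the test between diets, still varied with the other 8 among mice of a group.

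Single mice stood out across the whole set. Low-dose semaglutide mouse 6 was the lowest of its group for 10 of the 10 genes, low-dose zalfermin mouse 1 and high-dose zalfermin mouse 6 for 9 each, combination mouse 3 for 8 and high-dose semaglutide mouse 3 for 7. Combination mouse 2 was the highest of its group for 9 genes and high-dose semaglutide mouse 7 for 8. The summed level of the 10 genes was 120.3 CPM in low-dose semaglutide mouse 6, inside the chow range of 81.4 to 162 CPM, while DIO-MASH vehicle mice ranged from 609 to 1004 CPM. It was 126 CPM in high-dose zalfermin mouse 6 and 154 CPM in combination mouse 3, and 977 CPM in high-dose semaglutide mouse 7. Of the low mice, low-dose semaglutide mouse 6, low-dose zalfermin mouse 1 and high-dose semaglutide mouse 3 also had the highest hepatocyte marker sum of their groups, high-dose zalfermin mouse 6 the second lowest. The hepatocyte rank of combination mouse 3 is not reported here. The summed level of 12 monocyte and macrophage markers was the lowest of the group in low-dose semaglutide mouse 6 (437 CPM), low-dose zalfermin mouse 1 (592 CPM), combination mouse 3 (380.3 CPM) and high-dose semaglutide mouse 3 (447 CPM), and the highest in combination mouse 2 (921 CPM). It was 722 CPM in high-dose zalfermin mouse 6, in a group range of 707 to 874 CPM. The part of cell content in these differences was not tested.

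**Figure D3:**
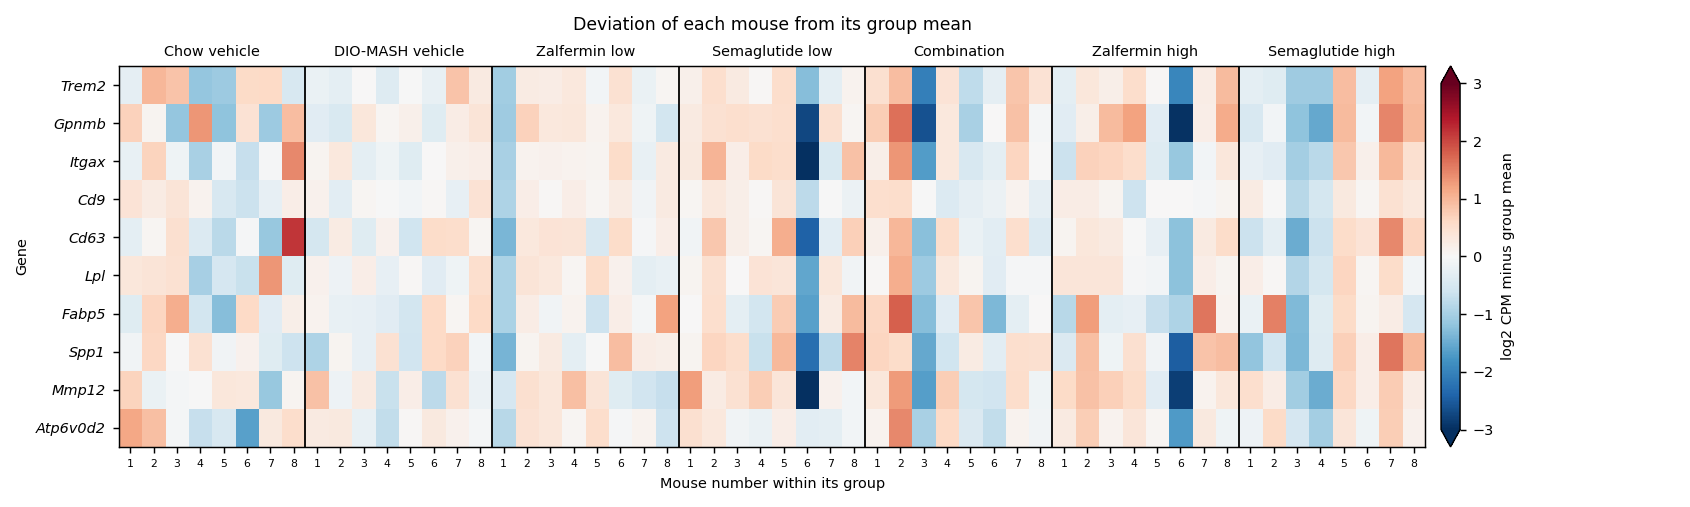
Deviation of each mouse from its group's mean log2 CPM (color, from -3 to 3) for the 10 genes (rows) in 56 mice (columns, by group and mouse number). Columns of one color, such as low-dose semaglutide mouse 6 and combination mouse 3 (blue) or combination mouse 2 (red), are mice in which most of the 10 genes were low or high together.

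The genes whose levels followed the set most closely within groups, among 11865 others with a mean of 1 CPM or more, were S100a11 (r = 0.896 with the mean z-score of the 10 genes over 56 mice), Myof (0.887), Asah1 (0.877), Anxa1 (0.869), Olfml3 (0.866), Cxcl16 (0.866), Il10rb (0.866) and Ms4a7 (0.862). Asah1 encodes the lysosomal acid ceramidase, Cxcl16 a chemokine that also acts as a scavenger receptor, and Anxa1 a phospholipid-binding protein. Without the 2 mice that deviated most (low-dose semaglutide mouse 6 and high-dose zalfermin mouse 6), the 8 values lay between 0.793 and 0.853.

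Further genes of the same cells and pathways were counted from lists written from general knowledge, with earlier results of these data known. Values are edgeR log2 fold changes against DIO-MASH vehicle ± SE. Of all tested genes, 55.4% were past the threshold in chow and 28.9% were lower. In the combination 10.9% of all tested genes were lower, in high-dose zalfermin 8.68%, and in high-dose semaglutide 2.43% changed in either direction. The counts of every list below stand beside these shares, and the shares that were higher in the treated groups are not reported here. Of 24 other lipid-associated macrophage genes tested, 19 were lower and 3 higher in chow than in DIO-MASH vehicle. In the combination 8 of them were lower, in high-dose zalfermin 11 and in high-dose semaglutide 3 (Lgals1, Anxa2 and Fabp4), and none was higher. Apoe and Ctsl, the most abundant, were with Mreg the 3 that were higher in chow (0.30 ± 0.11, adjusted p = 0.0148, and 0.38 ± 0.10, adjusted p = 7.29e-04, for Apoe and Ctsl). Genes of this list are also genes of other cells, both among those higher in chow (Apoe and Ctsl) and among those lower (such as Fabp4). Ch25h, the cholesterol 25-hydroxylase, was -4.57 ± 0.88, adjusted p = 1.87e-05 in chow and -1.35 ± 0.57, adjusted p = 0.0833 in the combination. Of 17 genes of TREM2 signalling and efferocytosis, 15 were lower in chow, among them the adaptor Tyrobp (-2.08 ± 0.24, adjusted p = 3.17e-10) and the receptor Axl (-1.90 ± 0.21, adjusted p = 1.48e-10). In each of the combination (Inpp5d) and high-dose zalfermin (Card9) 1 of the 17 was lower by edgeR, with 7 and 4 lower unadjusted and 3 and 2 by DESeq2, and Tyrobp did not pass (-0.55 ± 0.22, adjusted p = 0.0668, and -0.51 ± 0.22, adjusted p = 0.103). High-dose semaglutide changed 0 of the 17 by edgeR, with 5 lower unadjusted and 0 by DESeq2.

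Lysosomal genes were mixed: of 20, 9 were lower and 5 higher in chow, 3 lower and 2 higher in the combination, and 6 lower and 2 higher in high-dose zalfermin, with Lamp2 and Ctsh higher in all 3. Ctsk and Ctss, cathepsins of bone-resorbing cells and macrophages, had the largest changes (-2.58 ± 0.43, adjusted p = 1.42e-06, and -2.47 ± 0.26, adjusted p = 3.73e-11 in chow). Of 17 V-ATPase subunits other than Atp6v0d2, 4 were lower and 2 higher in chow, 3 lower and 1 higher in the combination and 3 lower in high-dose zalfermin. In chow this was a smaller share than the 55.4% of all tested genes. Among 23 near relatives of the members in their gene families, 16 were lower and 3 higher in chow, and Mmp13, a secreted collagenase, was lower in chow (-4.45 ± 0.57, adjusted p = 4.85e-09), the combination (-2.52 ± 0.46, adjusted p = 5.33e-05) and high-dose zalfermin (-2.05 ± 0.45, adjusted p = 7.04e-04). Itgam, the CD11b chain next to Itgax on chromosome 7, was -1.38 ± 0.47, adjusted p = 0.0103 in chow and -0.02 ± 0.42, adjusted p = 0.979 in the combination. Of 14 partners of osteopontin and lipoprotein lipase, 4 were lower (the receptors Cd44, Itgav, Itga4 and Itga9) and 5 higher in chow, and the lipase regulators Apoc3 and Apoa5 were higher in chow, in the combination and in high-dose zalfermin.

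Of 12 monocyte and macrophage markers, 10 were lower in chow, and their summed level was 138 to 662 CPM in chow against 701 to 1063 CPM in DIO-MASH vehicle mice. Ccr2 and Cx3cr1, receptors of recruited monocytes, were the 2 that fell in the combination (-1.22 ± 0.29, adjusted p = 0.00161, and -0.98 ± 0.31, adjusted p = 0.0167) and in high-dose zalfermin (-0.95 ± 0.29, adjusted p = 0.0156, and -0.86 ± 0.31, adjusted p = 0.0424). Of 12 resident Kupffer cell markers, 4 were higher in chow (Timd4, Marco, Cd163 and Slc40a1) and 3 lower, and 3 were higher (Clec4f, Timd4 and Marco) and 1 lower (C6) in the combination, with Clec4f higher in high-dose zalfermin. Their summed level was 513 to 999 CPM in chow and 470.0 to 887 CPM in DIO-MASH vehicle mice. Dendritic cell markers were lower in chow for 9 of 10, and the combination and high-dose zalfermin changed 0 of 10 by edgeR and by DESeq2, with 2 lower and 1 higher unadjusted, respectively.

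Hepatocyte markers were higher in chow for 10 of 10, in the combination for 8, in high-dose zalfermin for 9 and in high-dose semaglutide for 4. Stellate cell markers were lower for 7 of 10 in chow, 7 in the combination and 2 in high-dose zalfermin. Bile duct cell markers were changed for 5 of 10 in chow, all lower, and for 10 of 10 without chow mouse 8 and low-dose semaglutide mouse 6, and their summed level (these cells also make osteopontin) was 19.9 to 359 CPM in chow, where mouse 8 held the highest value, and 41.3 to 140.0 CPM in DIO-MASH vehicle mice. They were changed for 0 of 10 in the combination (0 unadjusted, 0 by DESeq2), with 9 of 10 estimates below 0 and a median of -0.35. In high-dose zalfermin and high-dose semaglutide 0 of 10 were changed by edgeR and by DESeq2 (0 and 1 unadjusted). There 10 of 10 estimates lay below 0, with medians of -0.46 and -0.60. The part of bile duct cells in the level of Spp1 was not tested. T and B cell markers were lower for 8 of 9 in chow, 1 in the combination and 3 in high-dose semaglutide. Of 9 neutrophil markers, 4 were higher and 1 lower in chow, and of the 9 the combination and both high doses changed 0 by edgeR and by DESeq2 (1, 0 and 0 unadjusted). Of 10 adipocyte genes, Adipoq, Plin1, Lep and Retn did not pass the filter, with 3 to 24 reads each over all 56 mice. Of the other 6, Plin4, Cidec and Cfd were lower in chow, in the combination and in high-dose zalfermin, while 2 were higher in chow (Car3 and Pck1) and 2 in high-dose zalfermin (Adrb3 and Pck1). High-dose semaglutide changed 0 of the 6 by edgeR and by DESeq2 (1 higher unadjusted). Whether the share of cells in the tissue set the level of the 10 genes was not tested.

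**Figure D4:**
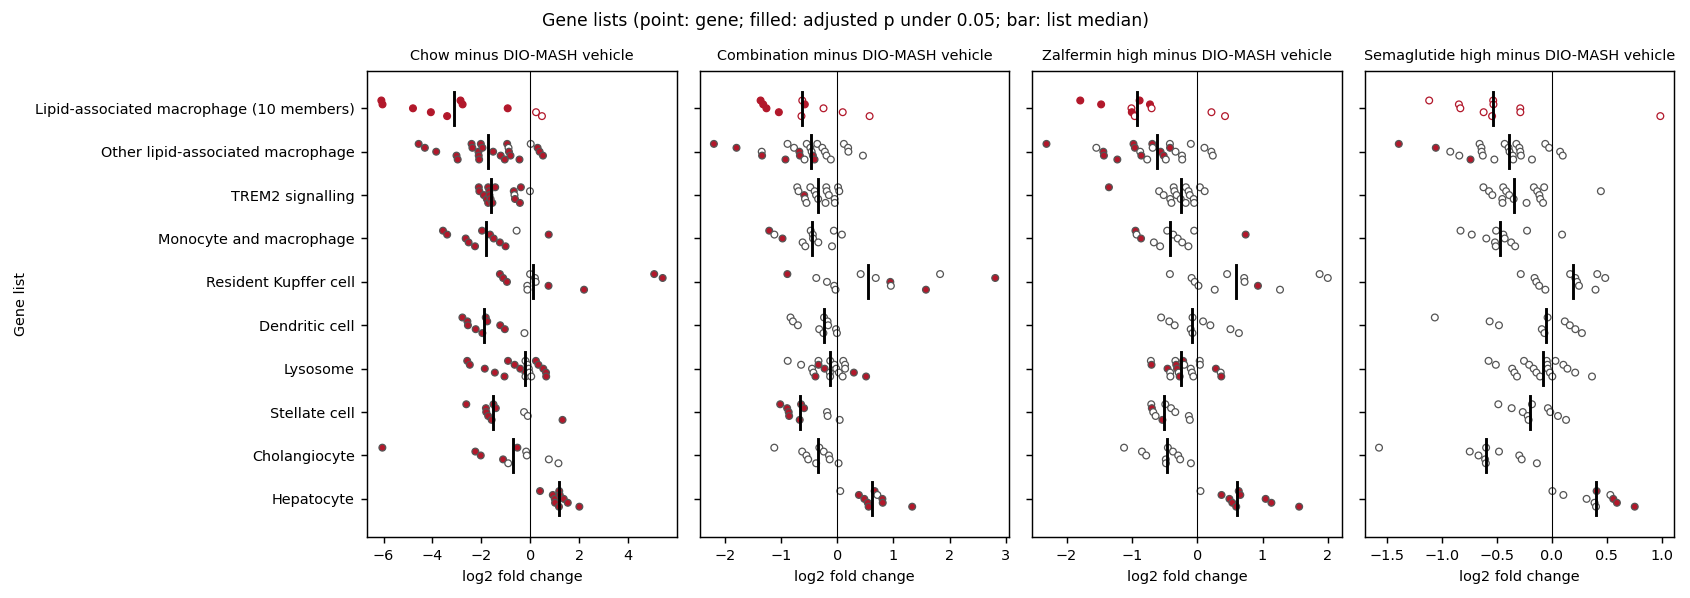
Log2 fold changes against DIO-MASH vehicle (horizontal axes, differing between panels) of the genes of 10 lists (rows) in chow vehicle mice and in 3 treated groups (the combination and both high doses). Each point is 1 gene, filled where the adjusted p is under 0.05, and black bars are list medians. The median of the 10 lipid-associated macrophage genes lies left of the medians of the other lists shown in the chow and high-dose zalfermin panels, while hepatocyte markers lie to the right of 0 in all 4.

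Some reads could belong to other annotated loci. Processed copies of Cd9, Cd63 and Fabp5 are annotated elsewhere in the genome, Spp1 overlaps a noncoding gene on its own strand, and Cd9 and Mmp12 overlap genes on the opposite strand. The counting program and its use of strand are not given in the sources used here, so the levels of these genes carry that uncertainty.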

How the data were processed

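RNA was sequenced from snap-frozen liver of 56 mice in 7 groups of 8, grouped from the sample labels. The deposited table holds whole-number read counts per gene, which the authors did not normalize. Per the study's methods, stranded mRNA libraries were aligned to GRCm38 with STAR and Ensembl annotation, while the submitters' processing notes also name Trim Galore 0.6.4 and Salmon 1.9.0. Which program gave the counts is not given in the sources used here. Genes with at least 5 reads in at least 3 mice were kept, scaled by TMM and fitted over all 7 groups in 1 edgeR 4.0.16 quasi-likelihood model (R 4.3.3) without covariates. P-values were adjusted over 14105 genes by Benjamini-Hochberg at a threshold of 0.05. The standard error was derived from the F statistic. Log2 CPM used a prior count of 2. The study's adjustment for body weight was not analysed here.

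Alternatives were DESeq2 1.42.0, its size factors, no filter, a filter of 10 reads in 8 mice, the series of mouse numbers as a covariate, only the groups compared, and each mouse left out. Leaving out both libraries that stood apart was chosen after seeing the data. On simulated data for high-dose zalfermin against DIO-MASH vehicle (13862 genes, 200 of them changed 2-fold), edgeR recovered 99% of the changed genes, and 4.35% of its calls were false. The simulation gave every gene the same dispersion and changed only genes with more reads. In high-dose zalfermin the SD of the 10 genes was 16.2% (Cd9) to 77.7% (Fabp5) of the mean. The rate of 99% therefore does not describe how often a change of these genes would be called. No 2 mice of a group had copied libraries.

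Members and lists were chosen with earlier results of these data known. Named genes were the 10 members, the 2 most abundant and the 2 most changed with diet of each list, Atp6v0d1, Itgam and Fabp4, and the 8 genes nearest to the set. Genes beyond these were named after their values were seen. Some genes of the lists are not reported here. Not in the table were Clec7a, Atp6v0a3 and Trbc2. Below the filter were Trem1, Ibsp, Dmp1, Ly6g, Adipoq, Plin1, Lep and Retn. Positions and exon lengths came from GENCODE M21 (GRCm38).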

Additional observations from a re-analysis of the deposited data

Results flagged for a closer look

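For each of the 10 genes, the highest and the lowest mouse of each group were compared with the rest of the group by Dixon's ratio. Of 70 sets of 8 mice, 13 held a mouse beyond its 95% critical value, where chance gives about 1 in 20. The mice came from the same livers across genes, so these are not independent.

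Combination mouse 2 was far above its group for Fabp5 (57 CPM, next 29.6), Lpl (198 CPM, next 117) and Atp6v0d2 (20.1 CPM, next 11.2). Low-dose semaglutide mouse 6 was far below its group for Gpnmb (5.51 CPM, next 38.8) and Lpl (37.8 CPM, next 104). High-dose zalfermin mouse 6 was far below for Lpl (39.1 CPM, next 87.4), and high-dose zalfermin mouse 4 for Cd9 (19.1 CPM, next 28.9). Low-dose zalfermin mouse 1 was far below for Cd9 (19.8 CPM, next 34.9), and mouse 8 of that group far above for Fabp5 (22.9 CPM, next 11.5). High-dose semaglutide mouse 2 was far above for Fabp5 (69.2 CPM, next 36.1). Chow mouse 8 was far above for Cd63 (34.8 CPM, next 10.9) and chow mouse 7 for Lpl (51.5 CPM, next 28). DIO-MASH vehicle mouse 7 was far above for Trem2 (24.6 CPM, next 16.2).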

How the results depend on the processing

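Of the counts of the 10 genes past the threshold in 17 comparisons, all stayed within 1.5 times the reported count with DESeq2, its size factors, no filter, the stricter filter and the number series as a covariate. With only the groups compared in the fit, 8 genes passed in high-dose zalfermin against DIO-MASH vehicle (5 reported, with Gpnmb, Lpl and Spp1 gained) and 1 (Mmp12) in high-dose semaglutide. Without chow mouse 8 and low-dose semaglutide mouse 6, Mmp12 alone was gained in high-dose semaglutide against DIO-MASH vehicle and in high-dose against low-dose zalfermin (1 gene each). With each mouse left out in turn, the count ranged from 3 to 6 in high-dose zalfermin against DIO-MASH vehicle, from 5 to 6 in the combination, from 0 to 2 in high-dose semaglutide, from 0 to 1 in the combination against low-dose zalfermin (Itgax, without combination mouse 2) and from 0 to 1 in high-dose against low-dose zalfermin. Trem2 in high-dose zalfermin also missed the threshold with no filter (adjusted p = 0.0569, edgeR). List counts in the comparisons with DIO-MASH vehicle moved by over 1.5 times most often with only the groups compared (12 of 90), where monocyte and macrophage markers went from 2 to 5 calls in the combination and from 3 to 6 in high-dose zalfermin. The cause was not tested.

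Log2 changes that turned sign were never past the threshold. Fabp5 in low-dose semaglutide against DIO-MASH vehicle (0.0028 reported) was -0.0041 with DESeq2, -0.0038 with its size factors, -0.00013 with the number series and -0.00072 with only the groups compared. With the number series, Atp6v0d2 in the combination against DIO-MASH vehicle was -0.0054, Gpnmb and Spp1 in high-dose against low-dose semaglutide were -0.027 and -0.10, and Lpl in the interaction was -0.016. Without both libraries that stood apart, Trem2 in the combination against low-dose semaglutide was -0.056, Gpnmb and Spp1 in high-dose against low-dose semaglutide were -0.13 and -0.14, and Spp1, Lpl and Mmp12 in the interaction were -0.0095, -0.042 and -0.14. With each mouse left out, the lowest and highest log2 changes of those that turned sign were as follows. The combination against chow gave Atp6v0d2 -0.47 to 0.066 and Fabp5 -0.32 to 0.27. The combination against high-dose semaglutide gave Gpnmb -0.033 to 0.56, Lpl -0.29 to 0.028 and Trem2 -0.25 to 0.10. The combination against low-dose semaglutide gave Trem2 -0.073 to 0.23. The combination against DIO-MASH vehicle gave Atp6v0d2 -0.23 to 0.21. The combination against high-dose zalfermin gave Fabp5 -0.049 to 0.69, Itgax -0.31 to 0.10 and Lpl -0.14 to 0.18. The combination against low-dose zalfermin gave Atp6v0d2 -0.10 to 0.34 and Gpnmb -0.24 to 0.25. The interaction gave Cd9 -0.13 to 0.035, Lpl -0.11 to 0.21, Mmp12 -0.21 to 0.23 and Spp1 -0.0097 to 0.44. High-dose semaglutide against low-dose semaglutide gave Cd63 -0.43 to 0.026, Gpnmb -0.24 to 0.17, Itgax -0.25 to 0.051, Spp1 -0.29 to 0.29 and Trem2 -0.041 to 0.29. Low-dose semaglutide against DIO-MASH vehicle gave Fabp5 -0.16 to 0.14. High-dose zalfermin against high-dose semaglutide gave Spp1 -0.26 to 0.20. High-dose zalfermin against DIO-MASH vehicle gave Fabp5 -0.12 to 0.33.

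No paired analysis was possible because the labels give each mouse a number of its own, and no replicate number is shared between groups. The series those numbers form were fitted as a covariate. With 8 mice per group, members of low level rested on few reads in chow (1 to 13 for Trem2).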
